A study of Mus musculus with 18 samples.

Results

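The genes described are the Hox genes, taken as every row of the deposited expression table that is annotated as protein coding and named Hox, followed by a cluster letter from a to d and a paralog number. The rule found 40 rows for 39 gene symbols among 54532 rows: 11 symbols in the Hoxa cluster, 10 in Hoxb, 9 in Hoxc and 9 in Hoxd. In the coordinates of the table (build mm10, per the submitters' processing notes) the rows span Hoxa on chromosome 6 from 52155590 to 52260880, Hoxb on chromosome 11 from 96194316 to 96368256, Hoxc on chromosome 15 from 102921103 to 103036852 and Hoxd on chromosome 2 from 74668310 to 74765142. Hoxd4 has 2 rows that overlap each other, one of which was at 0 in every library. RNA was sequenced in 18 libraries of ES-E14TG2a, a mouse embryonic stem cell line derived from a blastocyst. There were 3 lines, labelled Ctrlv2, Arf-B and Arf-C, each taken at day 0 and at day 8 with 3 replicates, which gives 6 groups. Day 0 is the undifferentiated state in medium with serum and leukaemia inhibitory factor. For day 8, cells on Matrigel received activin A at 20 ng/mL from day 0, then retinoic acid (written as 5 μM/ml) and FGF10 at 10 ng/mL from day 4 to day 8, a protocol aimed at posterior foregut endoderm. The genotype label is "wild type" for all 18 libraries, and how Arf-B and Arf-C were made, or whether each is a single clone, was not found in the labels. The series title names p19Arf, a product of the Cdkn2a locus, and the pancreatic lineage.

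Hox genes encode homeodomain transcription factors that give cells along the body axis their regional identity. In mammals they lie in 4 clusters. The genes of each cluster are numbered so that low numbers sit at the 3′ end, are switched on earlier and are used further towards the head, while high numbers sit at the 5′ end and are used later and towards the tail. In embryonic stem cells the clusters are held silent under Polycomb marks, and retinoic acid, through its nuclear receptors, is a classical inducer of their 3′ genes. In the gut, combinations of Hox genes mark position from foregut to hindgut.

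Values are FPKM, fragments per kilobase of gene length and per unit of sequencing depth, so levels of different genes can be set side by side. The depth recovered from the values was 22945409 to 33311220 reads on genes per library at day 0 and 10432590 to 22222425 at day 8. In these libraries 3 reads on a gene of 1 kb amount to 0.093 to 0.282 FPKM. Differences are on the scale log2(FPKM + 1), which understates the change of low genes, and are called when the adjusted p from limma over 17200 genes was below 0.05. A gene was tested when it reached 0.5 FPKM in at least 3 libraries. The labels do not say that replicates were separate cultures, so the spread behind each p-value is that of these samples and may be technical. The summed level of 8 pluripotency markers was 3907 to 4869 FPKM in the day-0 libraries. Cdkn2a, measured over the whole gene and not by transcript, was at 1.68 to 3.36 FPKM at day 0, at 32.0 to 34.3 FPKM in Ctrlv2 at day 8 and at 40.1 to 46.3 FPKM in the Arf lines at day 8. Markers of definitive endoderm and foregut were low at day 8, though higher in sum than at day 0. The 9 listed summed to 5.52 to 6.31 FPKM in Ctrlv2 at day 0 and 11.3 to 14.5 FPKM at day 8. The sum was 3.65 to 4.67 and 18.5 to 20.5 FPKM in Arf-B, and 4.14 to 4.70 and 20.1 to 22.2 FPKM in Arf-C. In the highest day-8 library Sox17 reached 1.43 FPKM and Foxa2 6.71 FPKM, and Cer1 was at or near 0. Pdx1, which is not on that list, reached 0.861 FPKM. In bulk RNA, fewer cells of a type and less RNA per cell cannot be told apart.

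At day 0 nearly all Hox genes were close to 0 in each line, and the end of Hoxc was an exception in all 3. Hoxc13, the last gene of the Hoxc cluster and known for its role in hair and nail, was at 2.32, 1.61 and 2.61 FPKM in the 3 Ctrlv2 libraries. Its neighbour Hoxc12 was at 1.33, 0.923 and 0.872 FPKM there. The ranges of Hoxc13 and Hoxc12 were apart from each other in each line. Hoxb9 was at 0.460 ± 0.0787 FPKM (SD, n = 3) and Hoxd13 at 0.293 ± 0.0495 FPKM in Ctrlv2. Hoxb1, Hoxb2, Hoxb3 and Hoxb6 had no read in any Ctrlv2 library at day 0. The summed level over all Hox rows was 4.92 to 7.57 FPKM in Ctrlv2, 9.88 to 10.3 FPKM in Arf-B and 11.8 to 12.5 FPKM in Arf-C, and paralogs 9 to 13 held 66.6%, 75.5% and 76.4% of it.

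**Figure D1:**
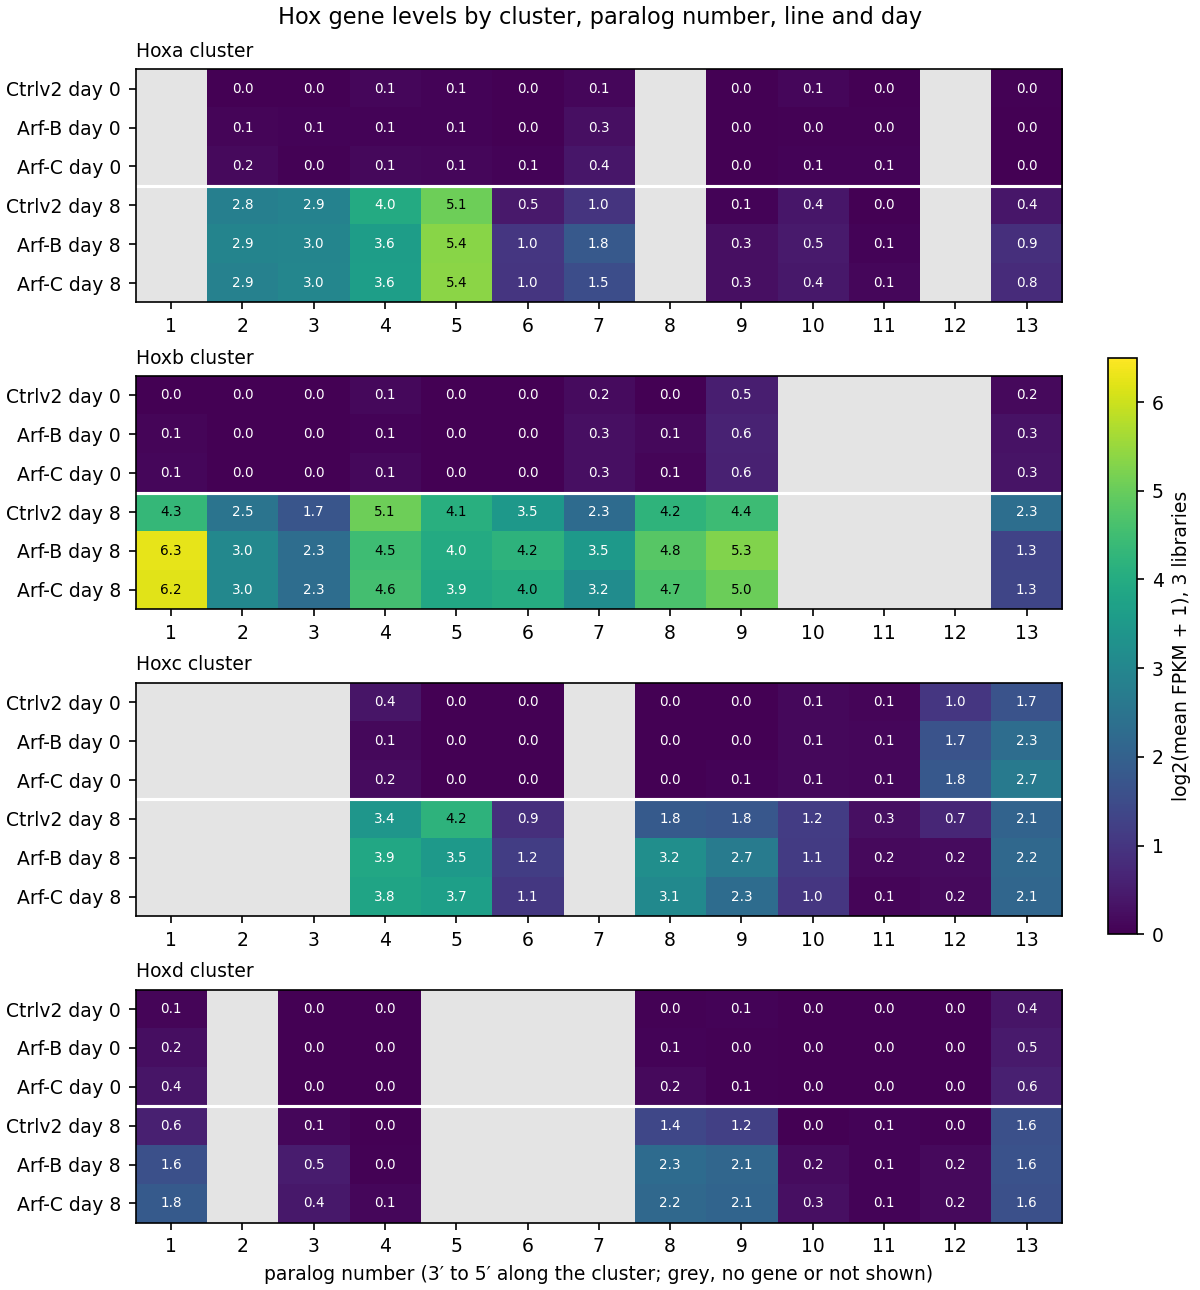
Mean level of each Hox gene as log2(mean FPKM + 1) over 3 libraries, with clusters as panels, paralog numbers as columns and the 6 groups of line and day as rows; grey marks numbers with no gene in that cluster or not shown, and the Hoxd4 row at 0 in every library is left out. Day-0 rows are dark except for Hoxc12 and Hoxc13, and at day 8 the highest levels lie in Hoxb1, Hoxa5, Hoxb4 and Hoxb9.

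At day 8 most 3′ and middle genes of Hoxa, Hoxb and Hoxc were expressed, as were some genes of higher number, such as Hoxb9. In Ctrlv2 the summed Hox level was 288, 262 and 277 FPKM in the 3 libraries. Hoxb held 47.5% of it, Hoxa 36.6%, Hoxc 13.9% and Hoxd 2.04%. Paralogs 1 to 4 held 49.0%, paralogs 5 to 8 held 37.7% and paralogs 9 to 13 held 13.3%, so most of the summed level now lay at low and middle numbers. Hoxa5, a regulator of lung and foregut patterning, stood at 33.5, 28.2 and 35.9 FPKM, and Hoxb4, known for its use in blood stem cells, at 35.3, 31.3 and 30.7 FPKM. The ranges of Hoxa5 and Hoxb4 overlapped. Levels were lower towards the 5′ end of Hoxa, where Hoxa6 was at 0.148, 0.323 and 0.633 FPKM and Hoxa13 at 0.315, 0.343 and 0.256 FPKM. In Hoxb levels did not follow the gene order: Hoxb9 was at 20.0, 20.0 and 22.5 FPKM, while Hoxb2, Hoxb3 and Hoxb7 had means of 4.67, 2.27 and 3.83 FPKM. In Hoxc the leading genes were Hoxc5, at 19.8, 16.1 and 16.3 FPKM, and Hoxc4, at 10.9, 9.42 and 8.74 FPKM. In Hoxd the highest gene of Ctrlv2 by mean was the last one, Hoxd13, a gene of digits and hindgut, at 1.83, 1.90 and 2.32 FPKM. Its range overlapped with that of Hoxd8, 1.24 to 1.87 FPKM.

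Of the 40 rows, 30 passed the filter: 8 of 11 in Hoxa, 10 of 10 in Hoxb, 8 of 9 in Hoxc and 4 of 10 in Hoxd. The 10 rows that did not pass were Hoxa9, Hoxa10, Hoxa11, Hoxc11, Hoxd3, Hoxd10, Hoxd11, Hoxd12 and both rows of Hoxd4. The highest value of any of them in any library was 0.662 FPKM, for Hoxa10. Hoxa9 had at most 1 read in a day-0 library and at most 31 in a day-8 library. Hoxd10 and Hoxd12 had no read at day 0 and at most 10 and 11 reads in a day-8 library. Of the 30 that passed, 26 did so only through day-8 libraries, so the count of members that rose over the days is a description and no support.

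Between day 0 and day 8 in Ctrlv2, 29 of 30 tested members rose and 0 fell, where 33.9% of all tested genes rose and 34.4% fell. At an unadjusted p below 0.05 the members that fell in Ctrlv2 still numbered 0. In Arf-B, 28 rose and 1 fell, against 32.9% and 33.8% of all genes. In Arf-C, 28 rose and 2 fell, against 32.8% and 33.8%. Without the filter, over the 39 rows with a read, 28, 32 and 32 rose in Ctrlv2, Arf-B and Arf-C and 0, 1 and 2 fell. The shares over the 33902 genes of that fit were 19.1% and 19.7% for higher and lower in Ctrlv2, 19.6% and 17.8% for Arf-B, and 19.2% and 17.4% for Arf-C. The median difference of the 30 members was 2.12, 2.86 and 2.78 in the 3 lines, and that of all genes was -0.01, -0.02 and -0.02. With members at 0 to 3 reads set to a floor of 3 reads over the 3 day-0 libraries, the median log2 ratio of day 8 to day 0 was 6.04, 6.81 and 6.27. Scaling every library to the same sum moved the median of all genes by 0.15 in Arf-B and 0.13 in Arf-C, and under that scaling 62.2% and 60.1% of called genes were higher at day 8, against 49.4% and 49.2%.

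For Hoxb, Hoxc and Hoxd the gene with the highest day-8 level in Ctrlv2 gave the following log2 differences there. Hoxb4 rose by 4.91 ± 0.07 (SE, adjusted p = 2.58e-17). Hoxc5 rose by 4.18 ± 0.11 (adjusted p = 3.76e-14) and Hoxd13 by 1.22 ± 0.09 (adjusted p = 6.98e-09). Called members of Ctrlv2 rose by between 0.34 for Hoxa13 and 5.01 for Hoxa5. The call for Hoxa6, with 2 to 7 reads per Ctrlv2 library at day 8, was lost without Ctrlv2 day-0 replicate 1 (0.072), Ctrlv2 day-0 replicate 2 (0.0528), Ctrlv2 day-0 replicate 3 (0.0732), Ctrlv2 day-8 replicate 2 (0.0548) or Ctrlv2 day-8 replicate 3 (0.162), with the adjusted p from limma in brackets, and without the filter (0.0589). Hoxb1, at 0 reads in Ctrlv2 on day 0, was at least 1285-fold higher at day 8, against the floor of 3 reads over the group. Hoxb2, Hoxb3 and Hoxb6 were at least 471-fold, 279-fold and 566-fold higher on the same floor.

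The last genes of Hoxc went another way. Hoxc12 was at 0.0400, 0.104 and 0.257 FPKM in Arf-B and at 0.0586, 0.227 and 0.0610 FPKM in Arf-C at day 8, which is 1 to 6 reads per library. It fell in both lines, by 1.47 ± 0.19 in Arf-B (adjusted p = 3.74e-06) and by 1.62 ± 0.19 in Arf-C (adjusted p = 1.24e-06). In Ctrlv2 it was at 0.629, 0.0913 and 1.15 FPKM at day 8, a wide spread that overlapped with day 0, and its difference of -0.38 ± 0.19 did not pass (adjusted p = 0.0869). Hoxc13 rose by 0.39 ± 0.13 in Ctrlv2 (adjusted p = 0.0159) and fell by 0.52 ± 0.13 in Arf-C (adjusted p = 0.00264), while its -0.14 ± 0.13 in Arf-B did not pass (adjusted p = 0.367). The call for Hoxc13 in Ctrlv2 rested on single libraries: its adjusted p was 0.0965 without day-0 replicate 2 and 0.105 without day-8 replicate 3.

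Most members had enough reads for a comparison of the lines only at day 8. In Arf-B 19 of 30 members were higher than in Ctrlv2 and 4 lower, where 16.3% of all genes were higher and 16.9% lower. In Arf-C 18 were higher and 5 lower, with 16.8% of all genes on each side. Both lines were set against the same 3 Ctrlv2 libraries. The members called higher in both lines numbered 18, and those called lower in both numbered 4. The median difference of the members was 0.50 in Arf-B and 0.43 in Arf-C, and that of all genes was 0.01 in each. Hoxa6, Hoxa13 and Hoxd1, 3 of the 30 members, passed the filter only through the Arf libraries of day 8, where they were high, so their calls are descriptions. Without them, 16 of 27 members were higher and 4 lower in Arf-B, 15 were higher and 5 lower in Arf-C, and 15 were higher and 4 lower in both. Scaled to the same sum, 68.9% of the called genes of the whole table lay higher for Arf-B and 63.5% for Arf-C, against 49.0% and 50.0%.

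Hoxb1 was higher in both Arf lines by a wide margin. Hoxb1, a gene of the hindbrain, was at 19.8, 19.0 and 18.6 FPKM in Ctrlv2, at 80.2, 79.6 and 66.6 FPKM in Arf-B, and at 79.1, 72.7 and 65.6 FPKM in Arf-C. The Ctrlv2 libraries were tight, and no Arf library came near them. The log2 difference was 1.92 ± 0.07 in Arf-B (adjusted p = 6.66e-11) and 1.86 ± 0.07 in Arf-C (adjusted p = 7.33e-11). Hoxd1 was at 0.383, 0.506 and 0.552 FPKM in Ctrlv2, 2.06, 1.82 and 2.07 FPKM in Arf-B and 2.18, 3.11 and 2.50 FPKM in Arf-C, and was higher by 1.01 ± 0.11 and 1.27 ± 0.11. Hoxd1 passed the filter only through the Arf libraries of day 8, so its difference is a description.

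**Figure D2:**
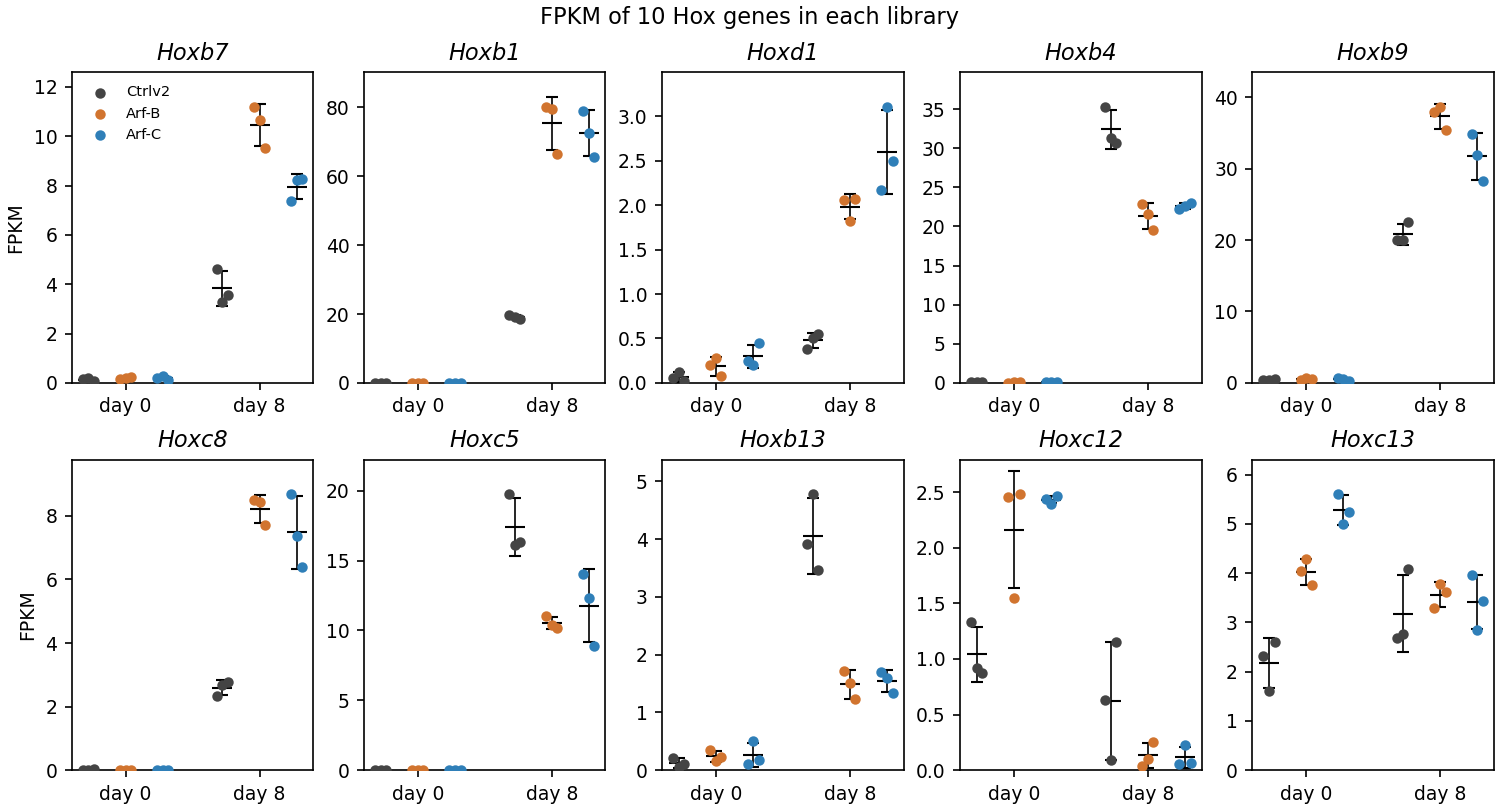
FPKM of 10 Hox genes in each library (points), with the mean and SD of each group of 3 (black), by line and day; each panel has its own linear axis from 0. Hoxb1, Hoxd1, Hoxb7, Hoxb9 and Hoxc8 lie higher in Arf-B and Arf-C than in Ctrlv2 at day 8, Hoxb4, Hoxc5 and Hoxb13 lie lower, and Hoxc12 and Hoxc13 lie higher in the Arf lines at day 0.

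The sequence before the start of 3 genes of the Hoxb cluster is shown because they lie within 1 cluster and yet differ in how the lines compare: Hoxb1 was higher in the Arf lines by the widest margin, Hoxb8 by a smaller one, and Hoxb4 was lower. The stretches are RefSeq promoter windows (build GRCm38.p6, plus strand, 5′ to 3′), ended where an annotated exon of the gene begins: Hoxb1 at chr11:96365508-96365751, Hoxb8 at chr11:96281655-96281904 and Hoxb4 at chr11:96318017-96318266. Capitals mark matches, on either strand, to the TATA box TATAAA, to the box CCAAT that the factor NF-Y binds, to the word TTTATG that Cdx proteins bind, and to the word TGATNNAT of Pbx and Hox proteins bound together.
Hoxb1: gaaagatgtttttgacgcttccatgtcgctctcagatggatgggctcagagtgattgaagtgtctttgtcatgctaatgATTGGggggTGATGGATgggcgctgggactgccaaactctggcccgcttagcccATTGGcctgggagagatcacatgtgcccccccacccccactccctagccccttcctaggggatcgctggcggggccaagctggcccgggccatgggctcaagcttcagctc
Hoxb8: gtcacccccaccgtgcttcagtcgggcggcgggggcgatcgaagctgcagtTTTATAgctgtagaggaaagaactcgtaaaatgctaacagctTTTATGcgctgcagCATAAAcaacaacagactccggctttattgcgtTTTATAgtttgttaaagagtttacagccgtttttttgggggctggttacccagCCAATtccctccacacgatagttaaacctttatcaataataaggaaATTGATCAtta
Hoxb4: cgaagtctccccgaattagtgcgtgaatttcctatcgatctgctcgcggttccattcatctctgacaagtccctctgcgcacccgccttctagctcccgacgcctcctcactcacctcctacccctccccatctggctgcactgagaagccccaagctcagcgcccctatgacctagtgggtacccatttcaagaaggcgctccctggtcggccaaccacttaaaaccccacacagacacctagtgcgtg
The Hoxb1 stretch holds TGATGGAT and 2 copies of CCAAT. The Hoxb8 stretch holds matches to all 4 words, and the Hoxb4 stretch holds none of them. A window of 300 bases, 250 before and 50 after the start, was at hand for 22 of the 39 symbols, in 24 windows. TTTATG was in 5 of the 24 windows and in 11.9% of all 32851 windows, and TGATNNAT in 4 and in 8.85%. TATAAA was in 4 of the 24 windows and in 13.6% of all, and CCAAT in 15 and in 37.4%. Matches to TTTATG and TATAAA cannot share a base, and every other pair of the 4 words can overlap. Direct repeats of the retinoic acid receptor half-site, taken as the form AGGTCA, the form GGGTCA, the form AGTTCA or the form GGTTCA on either strand, with a spacing of 1, 2 or 5 bases, were in 0 of the 24 windows and in 0.222%, 0.268% and 0.0974% of all windows. A match is a description of letters, and the lack of one says only that these letters are not in the window.

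Among the tested members with numbers 2 and 3, those of Hoxb were called and those of Hoxa were not. The genes were not tested against each other. Hoxd3, which did not pass the filter, had 12 reads in Ctrlv2 at day 8, 111 in Arf-B and 68 in Arf-C. Hoxb2, a hindbrain gene, was at 4.78, 4.16 and 5.07 FPKM in Ctrlv2, 6.00 to 8.03 FPKM in Arf-B and 6.11 to 8.09 FPKM in Arf-C. Hoxb3 was at 2.75, 1.57 and 2.49 FPKM in Ctrlv2, 3.39 to 4.76 FPKM in Arf-B and 3.55 to 4.39 FPKM in Arf-C. Both were higher in both lines, Hoxb2 by 0.52 and 0.53 and Hoxb3 by 0.62 and 0.64. Hoxa2, which patterns the second branchial arch, and Hoxa3, which acts in the pharynx and thymus, did not pass in either line. Hoxa2 was at 4.403 to 7.45, 5.33 to 7.90 and 5.46 to 6.78 FPKM and Hoxa3 at 5.83 to 7.33, 6.57 to 6.92 and 6.19 to 7.43 FPKM in Ctrlv2, Arf-B and Arf-C, all overlapping. Their 95% intervals were -0.17 to 0.42 and -0.09 to 0.24 in Arf-B and -0.24 to 0.35 and -0.08 to 0.24 in Arf-C. Reads of Hoxb3 and Hoxb2 are uncertain, since 52.9% and 27.3% of their exon bases lie under exons of the antisense gene Hoxb3os and the strand setting of the counting is not stated. The same holds for Hoxa3 and Hoxa7, with 25.4% and 20.4% of exon bases under antisense genes, and Hoxc5 and Hoxc10 share exon bases on 1 strand. Hoxd3 shares 62.4% of its exon bases on the same strand with Hoxd4 and the gene Gm28230. The Hoxd4 row at 0 in every library shares 52.3% with Hoxd3 and Gm28230. How such reads were counted is not stated, so the low values of Hoxd3 and Hoxd4, and the Hoxd sums, are uncertain.

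Paralog number 4 had members on both sides. Hoxb4 was at 22.9, 21.6 and 19.6 FPKM in Arf-B and 22.2, 22.6 and 22.9 FPKM in Arf-C, all below the 30.7 to 35.3 FPKM of Ctrlv2. It was lower by 0.58 ± 0.07 (adjusted p = 7.86e-06) and 0.50 ± 0.07 (adjusted p = 3.36e-05), as differences of -0.58 and -0.50. Hoxa4 was at 12.1, 11.4 and 10.1 FPKM in Arf-B and 12.9, 12.1 and 9.47 FPKM in Arf-C against 16.4, 13.2 and 14.5 FPKM in Ctrlv2. Its differences of -0.36 ± 0.11 and -0.33 ± 0.11 passed (adjusted p = 0.0208 and 0.0298) but did not when every library was scaled to the same sum (adjusted p = 0.107 and 0.101). Hoxa4 also lost its call in Arf-B without Arf-B day-8 replicate 3 (0.0945) or Ctrlv2 day-8 replicate 1 (0.0902) and in Arf-C without Arf-C day-8 replicate 3 (0.159), Ctrlv2 day-8 replicate 1 (0.123) or Ctrlv2 day-8 replicate 3 (0.0603), with the adjusted p from limma in brackets. It was lost with a pseudocount of 0.1 as well (adjusted p = 0.39 and 0.425). Hoxc4 went the other way, from 8.74 to 10.9 FPKM in Ctrlv2 to 13.4 to 14.3 FPKM in Arf-B and 12.5 to 13.8 FPKM in Arf-C, a difference of 0.48 ± 0.08 and 0.39 ± 0.08. With a pseudocount of 0.1 the call for Hoxc4 was lost in both lines (adjusted p = 0.0731 and 0.138). Summed over the paralogs with number 4, the level was 0.818 and 0.830 times that of Ctrlv2.

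Paralog number 5 was as divided. Hoxc5 was at 11.0, 10.4 and 10.2 FPKM in Arf-B and 14.0, 12.3 and 8.90 FPKM in Arf-C, none of which reached the lowest Ctrlv2 value, and its differences of -0.67 ± 0.11 and -0.54 ± 0.11 passed. Hoxa5 was at 37.6, 44.0 and 37.8 FPKM in Arf-B and 41.8, 39.5 and 39.5 FPKM in Arf-C, and was higher by 0.29 ± 0.09 and 0.31 ± 0.09. Its call was lost in Arf-B without Arf-B day-8 replicate 2 (0.0954) or Ctrlv2 day-8 replicate 2 (0.0956), in Arf-C without Ctrlv2 day-8 replicate 2 (0.0665), and in both with a pseudocount of 0.1 (adjusted p = 0.407 and 0.372). Hoxb5 was at 15.7 to 16.3 FPKM in Ctrlv2, 14.2 to 15.4 FPKM in Arf-B and 12.6 to 15.3 FPKM in Arf-C. It passed in Arf-C alone, at -0.20 ± 0.06 (adjusted p = 0.0232), and lost that call without Arf-C day-8 replicate 2 (0.073), Arf-C day-8 replicate 3 (0.122), Ctrlv2 day-8 replicate 1 (0.0619) or Ctrlv2 day-8 replicate 3 (0.0551). The difference between Arf-B and Arf-C for Hoxb5, 0.08 ± 0.06, did not pass. Summed over the 3 genes, number 5 stood at 0.985 and 0.999 times the Ctrlv2 level.

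Of the 11 tested members with numbers 6 to 9, a range chosen after their values were seen, 10 were higher in both lines. Of all genes, 16.3% were higher in Arf-B and 16.8% in Arf-C. The count is a description, since the range followed the values and Hoxa6 passed the filter only through the Arf libraries of day 8. Hoxc8, a gene of the thoracic spinal cord, was at 2.34, 2.69 and 2.76 FPKM in Ctrlv2, 8.49, 8.45 and 7.70 FPKM in Arf-B and 8.69, 7.37 and 6.40 FPKM in Arf-C. Its difference was 1.36 ± 0.09 in Arf-B (adjusted p = 1.16e-08) and 1.23 ± 0.09 in Arf-C (adjusted p = 3.32e-08). Hoxb7 was at 4.62, 3.29 and 3.58 FPKM in Ctrlv2, 11.2, 10.7 and 9.51 FPKM in Arf-B and 7.36, 8.21 and 8.27 FPKM in Arf-C, with differences of 1.25 ± 0.10 and 0.90 ± 0.10. For both genes the groups of the Arf lines lay wholly above Ctrlv2.

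Hoxb9, the highest gene of numbers 6 to 9 in each line, was at 37.9, 38.7 and 35.4 FPKM in Arf-B and 34.9, 31.9 and 28.3 FPKM in Arf-C, and was higher than Ctrlv2 by 0.81 ± 0.09 and 0.58 ± 0.09. Hoxb8 was at 15.7 to 20.1 FPKM in Ctrlv2, 25.5 to 29.1 FPKM in Arf-B and 23.1 to 26.4 FPKM in Arf-C, a difference of 0.59 ± 0.08 and 0.45 ± 0.08. Hoxb6 was at 8.34 to 11.2, 15.1 to 20.1 and 13.8 to 17.9 FPKM in Ctrlv2, Arf-B and Arf-C, higher by 0.76 and 0.58. In Hoxd the 2 middle genes that were tested were both higher in both lines. Hoxd8 was at 1.24 to 1.87, 3.13 to 4.29 and 3.00 to 4.04 FPKM in the 3 lines, higher by 0.89 and 0.83, and Hoxd9 was at 0.925 to 1.79, 3.19 to 3.65 and 2.86 to 3.93 FPKM, higher by 0.93 and 0.86. Hoxc9 was at 1.52 to 2.96, 5.34 to 5.66 and 3.05 to 4.30 FPKM, higher by 0.95 and 0.54. The call for Hoxc9 in Arf-C was lost with a pseudocount of 0.1 (adjusted p = 0.0594) and when the compared groups were fitted alone (adjusted p = 0.0859).

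Hoxa7 was at 0.557 to 1.32 FPKM in Ctrlv2, 2.09 to 2.84 FPKM in Arf-B and 1.66 to 2.40 FPKM in Arf-C, higher by 0.85 and 0.58. Hoxa6 rested on few reads, 2, 3 and 7 in the Ctrlv2 libraries, 16, 15 and 29 for Arf-B and 7, 17 and 19 for Arf-C. It was higher by 0.58 and 0.53, and the call was lost in Arf-B without Arf-B day-8 replicate 3 (0.0676) or Ctrlv2 day-8 replicate 1 (0.0561) and in Arf-C without Arf-C day-8 replicate 2 (0.0737), Arf-C day-8 replicate 3 (0.0982), Ctrlv2 day-8 replicate 1 (0.0862) or Ctrlv2 day-8 replicate 2 (0.0525). Hoxc6 was at 0.587 to 0.984, 0.993 to 1.43 and 1.02 to 1.18 FPKM and passed in Arf-B alone, at 0.31 ± 0.10 (adjusted p = 0.0202). That call was lost without Arf-B day-8 replicate 2 (0.0849), Arf-B day-8 replicate 3 (0.0814) or Ctrlv2 day-8 replicate 2 (0.0999), and also in limma-voom (adjusted p = 0.193).

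Among numbers 10 to 13 the 2 called members went in opposite directions. Hoxb13, the tail-end gene of its cluster, known in the prostate and hindgut, was at 3.91, 4.78 and 3.47 FPKM in Ctrlv2, 1.72, 1.51 and 1.22 FPKM in Arf-B and 1.70, 1.59 and 1.34 FPKM in Arf-C. Each Ctrlv2 library lay above each Arf library, and the difference was -1.02 ± 0.12 in Arf-B (adjusted p = 1.32e-05) and -0.99 ± 0.12 in Arf-C (adjusted p = 1.81e-05). Hoxa13 was at 0.315, 0.343 and 0.256 FPKM in Ctrlv2, 0.534, 1.13 and 0.805 FPKM in Arf-B and 0.538, 0.851 and 0.840 FPKM in Arf-C, higher by 0.47 ± 0.11 and 0.41 ± 0.11. Hoxa13 passed the filter only through the Arf libraries of day 8, so its call is a description. Hoxc10 was at 0.888 to 1.57 FPKM in Ctrlv2, 1.17 to 1.27 FPKM in Arf-B and 0.950 to 1.12 FPKM in Arf-C, and Hoxc13 at 2.69 to 4.08, 3.28 to 3.78 and 2.85 to 3.96 FPKM. Hoxd13 was at 1.86 to 2.58 FPKM in Arf-B and 1.87 to 2.21 FPKM in Arf-C. Hoxc10, Hoxc12, Hoxc13 and Hoxd13 did not pass in either line. Their 95% intervals in Arf-B were -0.22 to 0.21, -0.87 to -0.07, -0.14 to 0.42 and -0.15 to 0.24. That of Hoxc12 leaves out 0, but its adjusted p was 0.0686.

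**Figure D3:**
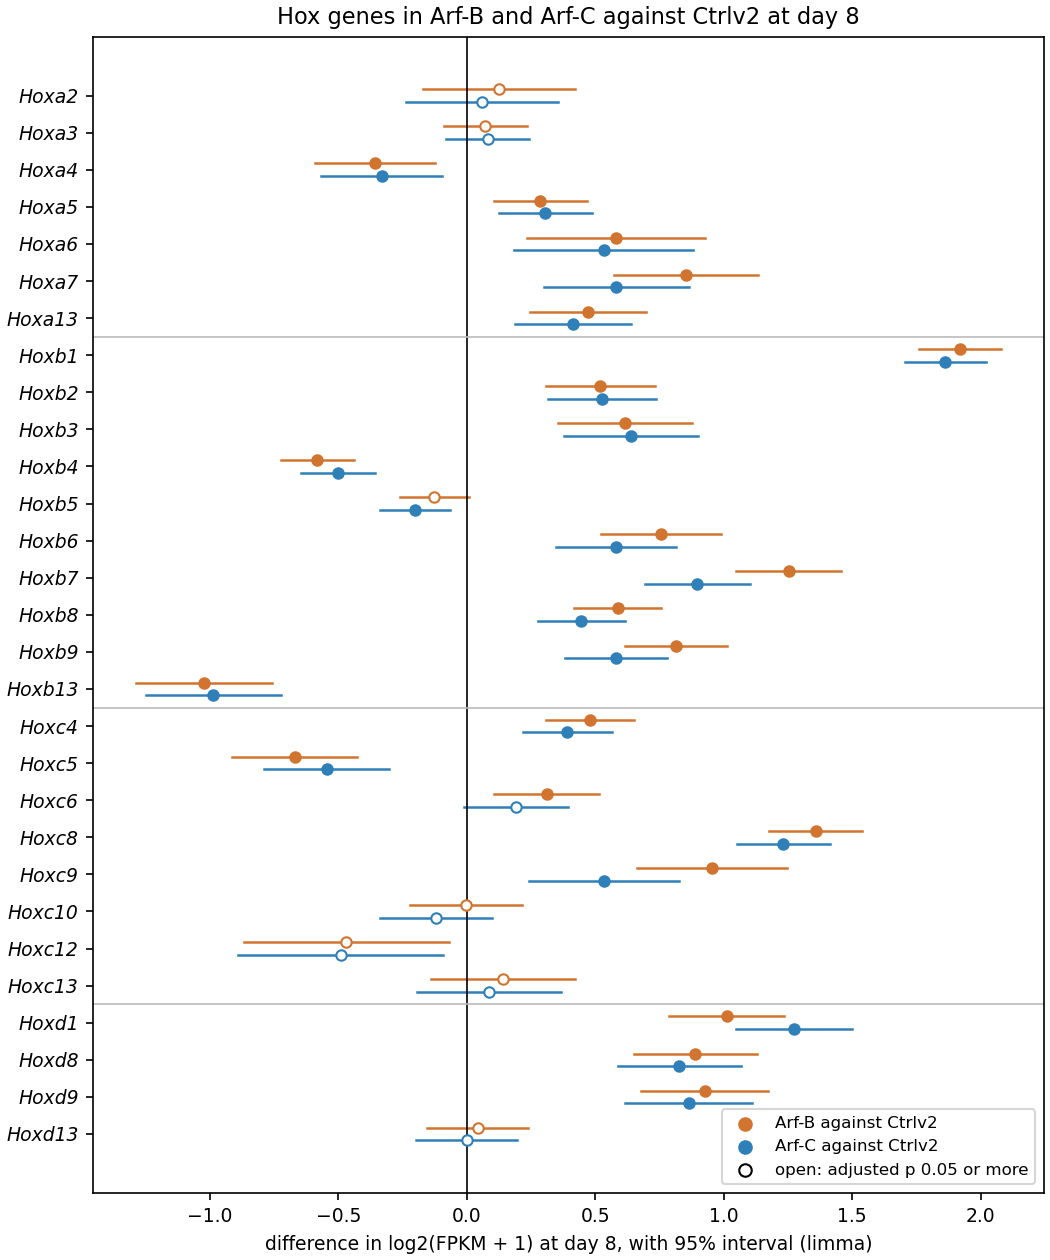
Difference in log2(FPKM + 1) at day 8 of 29 tested Hox genes in Arf-B (orange) and Arf-C (blue) against Ctrlv2, with 95% intervals from limma and filled points where the adjusted p was below 0.05; grey lines part the clusters. Hoxb1 lies farthest right at 1.92 and 1.86. The members called lower in both lines are Hoxb13, Hoxc5, Hoxb4 and Hoxa4, and some members without a call in both lines, such as Hoxc12, also lie left of 0.

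The composition of the summed Hox level at day 8 differed with the line. The sum was 394 to 428 FPKM in Arf-B and 384 to 418 FPKM in Arf-C, above the 262 to 288 FPKM of Ctrlv2, a ratio of means of 1.498 and 1.46. By cluster the ratio was 1.39 and 1.45 for Hoxa, 1.65 and 1.54 for Hoxb, 1.16 and 1.10 for Hoxc, and 2.15 and 2.18 for Hoxd. Numbers 4 and 5 held a smaller share in the Arf lines, with number 4 at 20.6%, 11.3% and 11.8% and number 5 at 24.0%, 15.7% and 16.4%. The share of paralogs 9 to 13 was 13.3%, 13.7% and 12.2%.

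**Figure D4:**
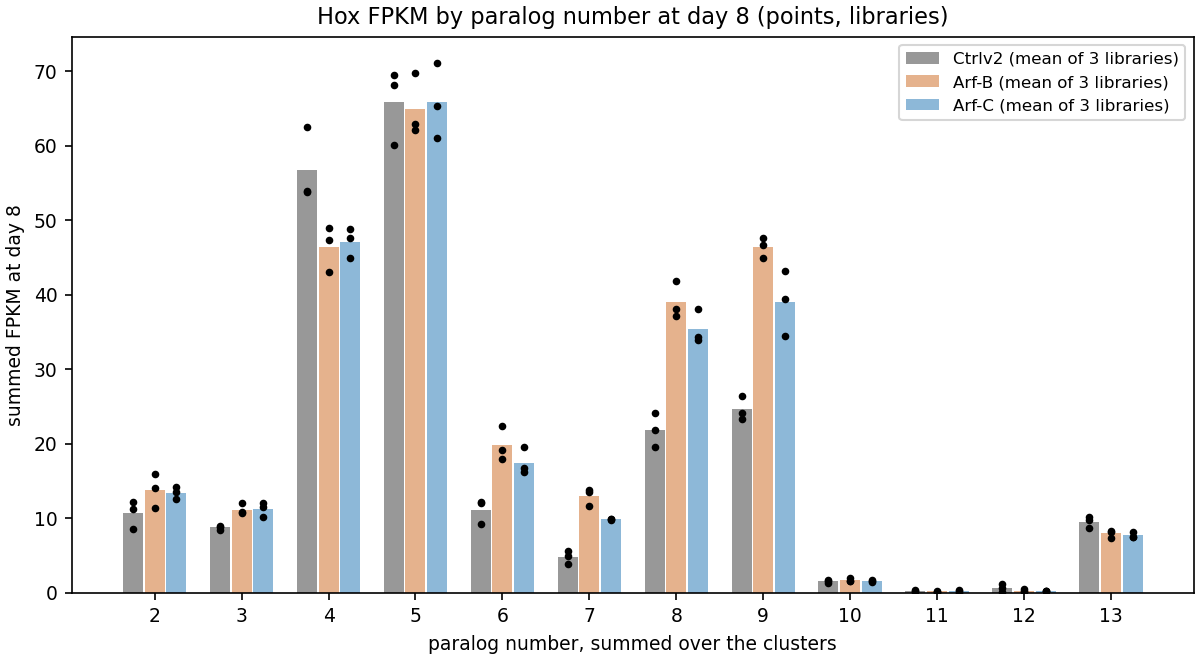
Summed FPKM at day 8 by paralog number from 2 to 13, with a bar for the mean of 3 libraries of each line and points for the libraries; the axis is linear from 0. Number 5 is at 66.0, 65.0 and 65.9 FPKM, and numbers 4 and 13 are lower in the Arf lines. The member of number 13 called lower is Hoxb13. Numbers 11 and 12 have lower means there too, but are at only 0.254 and 0.649 FPKM in Ctrlv2.

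At day 0 the lines differed in few members. Arf-B had 2 of 30 higher and 1 lower, where 19.1% and 20% of all genes were called, and Arf-C had 3 higher and 0 lower, where 21.2% and 21.5% were called. The members that were higher in both lines were the pair at the end of Hoxc. Hoxc13 was at 4.04, 4.28 and 3.75 FPKM in Arf-B and 5.61, 4.99 and 5.24 FPKM in Arf-C, each above the highest Ctrlv2 library, with differences of 0.67 ± 0.13 (adjusted p = 0.000801) and 0.99 ± 0.13 (adjusted p = 2.09e-05). Hoxc12 was at 2.46, 1.55 and 2.48 FPKM in Arf-B and 2.44, 2.40 and 2.46 FPKM in Arf-C, with differences of 0.62 ± 0.19 (adjusted p = 0.015) and 0.76 ± 0.19 (adjusted p = 0.00407). With a pseudocount of 0.1 Hoxc12 did not pass in either line (adjusted p = 0.16 and 0.087), and in Arf-B it was lost without Arf-B day-0 replicate 1 (0.0591), Arf-B day-0 replicate 3 (0.0589) or Ctrlv2 day-0 replicate 3 (0.0567). Hoxc4 was lower in Arf-B, at 0.0493, 0.108 and 0.160 FPKM against 0.227, 0.247 and 0.398 FPKM, a difference of -0.22 ± 0.08 (adjusted p = 0.0399) that was lost without Arf-B day-0 replicate 1 (0.137), Arf-B day-0 replicate 2 (0.0805) or Ctrlv2 day-0 replicate 3 (0.175). Hoxd1 was higher in Arf-C, at 0.243, 0.203 and 0.448 FPKM against 0.0551, 0.128 and 0.0166 FPKM, by 0.28 ± 0.11 (adjusted p = 0.0427), which was lost without Arf-C day-0 replicate 1 (0.0578), Arf-C day-0 replicate 3 (0.193), Ctrlv2 day-0 replicate 1 (0.0958) or Ctrlv2 day-0 replicate 3 (0.128).

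Some day-0 differences lay at a few reads per library. Hoxb1 had 0 reads in each Ctrlv2 library, 3, 6 and 2 reads for Arf-B and 4, 7 and 5 for Arf-C. Hoxb8 had 1, 0 and 1 reads in Ctrlv2, 8, 7 and 6 for Arf-B and 5, 2 and 6 for Arf-C. Hoxa2 had 0, 0 and 1, then 5, 3 and 2, then 8, 6 and 4 reads in the 3 lines. In these 3 genes each Arf library had more reads than each Ctrlv2 library. On log2(FPKM + 1) none of them passed at day 0. With a pseudocount of 0.1 the limma adjusted p for Arf-B and Arf-C was 0.000797 and 3.35e-05 for Hoxb1, 0.000206 and 0.00389 for Hoxb8, and 0.0235 and 0.00063 for Hoxa2. Limma-voom on the recovered reads called 7 of 30 members higher and 1 lower for Arf-B on that day, where 21.9% and 22.3% of all genes were called, and 8 higher and 0 lower for Arf-C, where 23.7% and 23.9% were called. The shares of members called higher were near those of all genes.

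No tested member was called between Arf-B and Arf-C. On either day, 0 of 30 members were called, by limma on FPKM and by limma-voom on recovered reads, where 0.105% and 0.238% of all genes were called higher and lower in Arf-B at day 0 and 0.0349% and 0.0233% at day 8. At an unadjusted p below 0.05 there was 1 member at day 0, Hoxc13, and there were 4 at day 8, Hoxb7, Hoxb9, Hoxc9 and Hoxd1. Scaled to the same sum, 43.5% of the genes of the whole table called at day 0 were higher in Arf-B, against 30.5%. The widest difference at day 8 was 0.42 ± 0.14 for Hoxc9, with a 95% interval of 0.13 to 0.71.

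For genes read at both days the change over the days can itself be compared between lines. The day response, the difference of day 8 from day 0 in an Arf line minus that in Ctrlv2, was larger for 16 members and smaller for 5 in Arf-B, where 17.5% and 16.1% of all genes were called, and larger for 14 and smaller for 5 in Arf-C, where 19.4% and 18.9% were called. Scaled to the same sum, 64.2% of the called genes of the whole table were larger in Arf-B, against 52.1%. For members near 0 reads at day 0 this value restates the difference at day 8. Hoxa13 and Hoxd1, among the larger responses in both lines, passed the filter only through the Arf libraries of day 8. Their responses are therefore descriptions. With limma-voom on recovered reads the balance was not kept: 3 members had a larger and 4 a smaller response in each line, where 16.8% and 14.8% of all genes were called for Arf-B and 18.1% and 16.7% for Arf-C. Hoxc12, read at both days, had a smaller response, at -1.09 ± 0.27 and -1.25 ± 0.27, and so did Hoxc13, at -0.53 ± 0.19 and -0.91 ± 0.19. The value for Hoxc13 in Arf-B was lost without Arf-B day-0 replicate 1 (0.067), Arf-B day-0 replicate 2 (0.0831), Arf-B day-8 replicate 1 (0.085), Arf-B day-8 replicate 3 (0.0608), Ctrlv2 day-0 replicate 2 (0.0942) or Ctrlv2 day-8 replicate 3 (0.1).

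Other rows that lie among the Hox genes, most of them noncoding, were also measured. Of 52 such rows within the clusters or 10000 bases of them, 18 were tested, and 13, 13 and 15 rose from day 0 to day 8 in Ctrlv2, Arf-B and Arf-C while 1, 0 and 0 fell, where 33.9%, 32.9% and 32.8% of all genes rose and 34.4%, 33.8% and 33.8% fell. At day 8 13 were higher in Arf-B and 11 in Arf-C than in Ctrlv2, where 16.3% and 16.8% of all genes were higher, and 0 were lower, where 16.9% and 16.8% were. The same shares over all genes stand behind the gene lists that follow. Some of the 18 rows, Haglr among them, passed the filter only through the Arf libraries of day 8. The counts of these rows at day 8 are therefore descriptions. Others of them, such as Hoxb5os, Hoxb3os and Hoxaas2, passed only through day-8 libraries. The counts of rows that rose over the days are thus descriptions and no support. Hoxb5os, antisense to Hoxb5, was at 5.34 ± 1.52 FPKM (SD, n = 3) in Ctrlv2, 28.1 ± 4.35 FPKM in Arf-B and 22.6 ± 5.62 FPKM in Arf-C, higher by 2.22 ± 0.17 and 1.89 ± 0.17. Hotairm1, a noncoding RNA of the Hoxa cluster, was at 10.3 ± 0.785 FPKM in Ctrlv2, 19.7 ± 2.01 FPKM in Arf-B and 20.8 ± 1.64 FPKM in Arf-C. Haglr, which begins beside Hoxd1, was at 0.294 ± 0.109, 1.19 ± 0.171 and 1.19 ± 0.0467 FPKM. Hotairm1 and Haglr were higher in both Arf lines, as was Hoxd1, and Hoxb5os was higher while Hoxb5 was not. Like Hoxd1, Haglr passed the filter only through the Arf libraries of day 8, so its difference is a description. Short rows within the clusters, such as microRNA genes, rested on few reads from a poly(A) library and are not read further.

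Hox proteins bind DNA with TALE cofactors of the Meis, Pbx and Pknox families, and most of these rose over the days in each line. Of 9 tested, 8 rose and 1, Pknox1, fell in each of the 3 lines, and their summed level was 110 to 114 FPKM in Ctrlv2 at day 8, 105 to 114 FPKM in Arf-B and 99.6 to 116 FPKM in Arf-C. Against Ctrlv2 at day 8, 1 was higher and 2 lower in Arf-B, and 1 was higher and 3 lower in Arf-C, against 16.3% to 16.9% of all genes on a side. The day response was larger than in Ctrlv2 for 2 and smaller for 2 in Arf-B, and larger for 1 and smaller for 3 in Arf-C, against 16.1% to 19.4% of all genes on a side. Meis3 was lower in both, by 0.57 ± 0.09 and 0.41 ± 0.09, as differences of -0.57 and -0.41.

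The genes that handle retinoic acid changed widely over the days and in part between the lines. Of 18 listed 15 were tested, and 11, 13 and 13 rose in Ctrlv2, Arf-B and Arf-C, and 1 fell in each. At day 8, 6 were higher and 4 lower in Arf-B than in Ctrlv2, and 6 were higher and 3 lower in Arf-C. Cyp26a1, which degrades retinoic acid, was at 538 to 601 FPKM in Ctrlv2, 332 to 405 FPKM in Arf-B and 322 to 412 FPKM in Arf-C, a difference of -0.58 ± 0.10 and -0.68 ± 0.10. Stra6, a retinol transporter, was at 5.06 to 6.68, 17.2 to 18.8 and 17.9 to 19.3 FPKM, higher by 1.49 ± 0.08 and 1.54 ± 0.08.

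Cdx genes, which bind Hox clusters and pattern the trunk and hindgut, were among the regulators that separated the lines. Of 11 genes listed as Cdx and axial regulators 9 were tested, and 5 were higher and 2 lower at day 8 in each Arf line. Cdx1 was at 1.30 to 2.31 FPKM in Ctrlv2, 13.01 to 20.1 FPKM in Arf-B and 12.7 to 18.8 FPKM in Arf-C, higher by 2.54 ± 0.18 and 2.53 ± 0.18. In Ctrlv2 Cdx1 fell over the days by 1.69 ± 0.18, from 6.55 to 9.39 FPKM at day 0. Cdx2 was at 0.0349 to 0.416, 0.714 to 0.894 and 0.620 to 1.17 FPKM, higher by 0.58 ± 0.12 and 0.69 ± 0.12. No Ctrlv2 library of day 8 reached the 0.5 FPKM of the filter for Cdx2, so its call is a description. Egr2, a hindbrain gene, and Nr6a1, a regulator of trunk Hox genes, were lower in both lines. Of the 6 ParaHox genes, relatives of the Hox genes outside the clusters that include Cdx1 and Cdx2, 3 were tested and 3 were higher in both lines. Cdx2 enters this count and that of the axial regulators at day 8, so both counts are descriptions.

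Chromatin regulators of the Hox clusters had calls on both sides. Of 15 Polycomb genes tested, 6 rose and 6 fell over the days in Ctrlv2, 5 and 7 for Arf-B and 5 and 8 for Arf-C. At day 8, 3 were higher and 0 lower in Arf-B than in Ctrlv2, and 4 were higher and 1 lower in Arf-C, where 16.3% to 16.9% of all genes were called on a side, and 32.8% to 34.4% over the days. Of 8 genes of the Trithorax group and H3K27 demethylases, 2 rose in each line and 3, 4 and 4 fell, and at day 8 1 was higher and 1, Ash2l, lower in each Arf line.

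Markers of several cell types also differed between the lines at day 8, and their part in the Hox differences was not tested. The 8 pluripotency markers were higher in both Arf lines, 8 of 8, with a summed level of 105 to 135 FPKM in Ctrlv2, 651 to 880 FPKM in Arf-B and 543 to 910 FPKM in Arf-C. Of 8 markers of extraembryonic endoderm, 7 were lower in both lines, with sums of 330 to 433, 82.7 to 85.1 and 86.1 to 91.7 FPKM. Of 7 tested neural and hindbrain markers, 2 were higher and 4 lower for Arf-B and 1 and 4 for Arf-C, with sums of 24.8 to 27.4, 18.1 to 19.4 and 16.9 to 17.7 FPKM, and Neurog2 was at or near 0 throughout. Of 7 tested mesoderm markers, 2 were higher in each line and 2 and 3 lower, with sums of 17.6 to 20.98, 35.0 to 37.8 and 30.7 to 43.5 FPKM. Of 7 tested markers of definitive endoderm and foregut, 1 was higher and 1 lower for Arf-B and 2 and 1 for Arf-C, with sums of 11.3 to 14.5, 18.5 to 20.5 and 20.1 to 22.2 FPKM. Of 5 tested trophoblast markers 1, Cdx2, was higher in each line, with sums of 12.4 to 15.3, 13.9 to 15.6 and 13.9 to 15.7 FPKM. The call for Cdx2 is a description, as no Ctrlv2 library of day 8 reached the 0.5 FPKM of the filter for it. Depth moved with the groups as well, with 10432590 to 14709983 reads on genes in the Ctrlv2 libraries of day 8 and 14598683 to 22222425 in the Arf libraries. With reads thinned to the smallest library, 19 members were higher and 4 lower in Arf-B at day 8, and 19 and 5 in Arf-C.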

How the data were processed

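Poly(A) RNA of 18 libraries was sequenced, 3 in each of 6 groups of line and day. The authors deposited FPKM values per gene with gene lengths, and the submitters' processing notes list DESeq2, featureCounts, HISAT2 and mm10, without versions or roles. The strand setting and the gene annotation release are not given in the sources used here. FPKM times length gave whole reads for all 413772 values above 0, within 0.001 of a read, and these reads were used for depth, floors and an alternative test.

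Groups were compared with limma 3.58.1 (trend and robust options, R 4.3.3) on log2(FPKM + 1) in a single fit of all 18 libraries, for the 17200 genes that reached 0.5 FPKM in 3 or more libraries, with Benjamini-Hochberg adjustment over all of them and a threshold of 0.05. The fit was tested on simulated data. Figures and sums used Python 3.11.15, pandas 2.3.3 and matplotlib 3.10.9. Alternatives were a pseudocount of 0.1, other filters, median-ratio and same-sum scaling, limma-voom on the recovered reads, thinned reads, the compared groups alone, a replicate block and each library left out. Exon overlaps came from GENCODE M21, whose coordinates equal those of 38 of the 40 rows, and promoter windows from RefSeq (GRCm38.p6).

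The members and gene lists were chosen with earlier results of these data known. Hox genes are given by cluster and paralog number, and 1 member and some listed genes enter the counts and sums but are not reported here. Fits are given in full over the days for the member with the highest day-8 level of Hoxb, Hoxc and Hoxd, and for called members between lines, and other genes are named from the lists where called, most abundant or at 0.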

Additional observations from a re-analysis of the deposited data

Results flagged for a closer look

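For the members named here, the change from day 0 to day 8 on log2(FPKM + 1) differed between an Arf line and Ctrlv2. The test was limma's, of the difference itself. Values are the day response of the Arf line minus that of Ctrlv2 on the log2(FPKM + 1) scale, and both lines are set against the same 6 Ctrlv2 libraries. In Hoxa of Arf-B the difference was 0.70 for Hoxa7 and 0.51 for Hoxa13. In Hoxb of Arf-B the difference was 1.84 for Hoxb1, 0.52 for Hoxb2, 0.62 for Hoxb3, -0.51 for Hoxb4, 0.76 for Hoxb6, 1.18 for Hoxb7, 0.47 for Hoxb8, 0.73 for Hoxb9 and -1.16 for Hoxb13. In Hoxc of Arf-B the difference was 0.70 for Hoxc4, -0.65 for Hoxc5, 1.36 for Hoxc8, 0.95 for Hoxc9, -1.09 for Hoxc12 and -0.53 for Hoxc13. In Hoxd of Arf-B the difference was 0.86 for Hoxd1, 0.85 for Hoxd8 and 0.95 for Hoxd9. In Hoxa of Arf-C the difference was 0.45 for Hoxa13. In Hoxb of Arf-C the difference was 1.74 for Hoxb1, 0.52 for Hoxb2, 0.63 for Hoxb3, -0.50 for Hoxb4, 0.56 for Hoxb6, 0.81 for Hoxb7, 0.37 for Hoxb8, 0.54 for Hoxb9 and -1.14 for Hoxb13. In Hoxc of Arf-C the difference was 0.57 for Hoxc4, -0.53 for Hoxc5, 1.24 for Hoxc8, -1.25 for Hoxc12 and -0.91 for Hoxc13. In Hoxd of Arf-C the difference was 0.99 for Hoxd1, 0.70 for Hoxd8 and 0.88 for Hoxd9. Most of these members had few or no reads at day 0, so the value is then nearly that of day 8 alone. The sign rests on the scale for several of them. In limma-voom on recovered reads Hoxb1 was at -1.07 in Arf-B and -1.74 in Arf-C, and Hoxb8 at -2.30 and -1.73. The other changes of sign are given below. Hoxa13 and Hoxd1 passed the filter only through the Arf libraries of day 8, where they were high, so their values are descriptions. The causes were not tested.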

How the results depend on the processing

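The alternatives left 2770 of 2907 single-gene values on the same side of the threshold and in the same direction, 123 lost the call and 14 changed sign, and of 354 counts 323 stayed within 1.5 times the main count. Of 180 called pairs of gene and comparison, 49 lost the call in at least 1 alternative and 15 when 1 library was left out. At day 0 Arf-B had 2 members higher than Ctrlv2, with 5 at a pseudocount of 0.1 and 7 in limma-voom on recovered reads. It had 1 lower, with 2 at a pseudocount of 0.1 and 0 with no filter, scaling to the same sum, thinned reads or the compared groups fitted alone. Arf-C had 3 higher at day 0, with 8 at a pseudocount of 0.1, 8 in limma-voom and 6 with the compared groups alone, and 0 lower, with 1 at a pseudocount of 0.1. At day 8 Arf-C had 5 lower, with 3 under scaling to the same sum, limma-voom or the compared groups alone. The larger day responses numbered 16 in Arf-B, with 9 at a pseudocount of 0.1 and 3 in limma-voom, and 14 in Arf-C, with 6 and 3. The smaller ones in Arf-B numbered 5, with 3 at a pseudocount of 0.1.

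Leaving out 1 library at a time gave 27 to 29 members that rose and 0 to 1 that fell in Ctrlv2. At day 0 it gave 1 to 2 higher and 0 to 1 lower in Arf-B, and 2 to 3 higher and 0 to 1 lower in Arf-C. At day 8 it gave 17 to 19 higher and 3 to 5 lower in Arf-B, and 16 to 18 higher and 3 to 6 lower in Arf-C. The larger and smaller day responses were 16 to 18 and 4 to 5 in Arf-B and 13 to 15 and 5 to 6 in Arf-C.

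The sign of the day response turned in limma-voom for Hoxa7 (-0.047), Hoxb1 (-1.07), Hoxb4 (0.71), Hoxb8 (-2.30), Hoxc5 (0.061) and Hoxd8 (-0.29) in Arf-B. In Arf-C it turned for Hoxb1 (-1.74), Hoxb2 (-0.039), Hoxb6 (-0.27), Hoxb8 (-1.73), Hoxc5 (0.15) and Hoxd8 (-1.49). At a pseudocount of 0.1 that of Hoxb8 was -0.26 in Arf-B and -0.12 in Arf-C. The cause was not tested.

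With the replicate number as a block (replicate block), 0 members were lower in Arf-B at day 0 in place of 1, 2 were higher in Arf-C at day 0 in place of 3, and 19 and 18 were higher in Arf-B and Arf-C at day 8. The numbers did not pair the libraries: in 0 of 15 pairs of groups did all 3 correlations of same-numbered libraries exceed 0.1, they ran from -0.25 to 0.20, and 8 of 18 libraries correlated best with their own number. At day 0 members at a few reads per library could differ without a call on log2(FPKM + 1). With reads thinned to the smallest library, 2 members were higher in each Arf line on that day.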
